A study of Mus musculus with 10 samples.

Results

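The non-clustered delta protocadherins are single-gene members of the protocadherin branch of the cadherin superfamily, and 9 of them were followed in midline cortex dissected from mice at embryonic day 14.5: Pcdh1, Pcdh7, Pcdh8, Pcdh9, Pcdh10, Pcdh17, Pcdh18, Pcdh19 and Pcdh20. They were taken by symbol, and all 9 were found among the 16338 genes of the transcript table, while 3 were named for a peak among 6995 listed chromatin peaks. Members and the gene lists used below were chosen with earlier results of these data known. The study asked what the loss of Rcor2 (REST co-repressor 2, a scaffold of the CoREST and LSD1 repressor complex) does in the midline, where callosal axons cross. RNA-seq compared 2 conditional knockout (cKO) libraries, from Rcor2 f/f embryos that also carried EMX1-iCRE, with 2 control (CTL) libraries from Rcor2 f/f embryos, so the floxed allele and the C57/Bl6 strain were common to both groups. Emx1-driven Cre acts in progenitors of the dorsal telencephalon and their descendants, so cells that enter the midline from elsewhere, such as ventrally born interneurons, meninges and blood, keep Rcor2. ChIP-seq used wild-type C57/Bl6 midline of the same age, with 2 libraries each for an Rcor2 antibody, for control IgG and for input chromatin. The labels do not say how many embryos went into a library.

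Delta protocadherins carry extracellular cadherin repeats that bind the same protein on a neighbouring cell, weakly compared with classical cadherins, and a cytoplasmic tail that reaches kinases, phosphatases and actin regulators. Delta-1 members (here Pcdh1, Pcdh7 and Pcdh9) have a longer ectodomain and a tail motif that binds protein phosphatase 1 alpha, and delta-2 members (here Pcdh8, Pcdh10, Pcdh17, Pcdh18 and Pcdh19) include several that recruit the WAVE complex, which drives branched actin. Pcdh20 is placed apart from both subgroups here. In the forebrain the family is known for sorting cells and axons by region and layer.

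Depth was 28309925 and 29783893 recovered reads for cKO midline and 30270598 and 27674987 for CTL midline. Rcor2 itself had 6363 and 6840 normalized counts in cKO midline against 7901 and 7257 in CTL midline (log2 change -0.20, SE 0.057, limma adjusted p = 0.0541), and in the authors' deposited table its log2 change was -0.19 with an adjusted p of 0.0444, which passes. The labels do not say which exons are floxed, so a count over the whole gene is a weak check of the genotypes. The dorsal telencephalic gene Emx1 had 3603 and 3612 normalized counts in cKO midline against 3166 and 3122 in CTL midline, so it was read in every library and rose (log2 change 0.20, limma adjusted p = 0.0234), as did Emx2 (log2 change 0.25, limma adjusted p = 0.0238). Library 1 of each genotype held the Y-linked transcript Ddx3y (3211 in cKO midline and 2936 in CTL midline) and library 2 held Xist (21449 in cKO midline and 20334 in CTL midline), so library number and sex coincide and each genotype has 1 library of each sex. cKO library 1 also stood apart in fibroblast collagens: Col3a1 had 2842 and 282 normalized counts in cKO midline against 334 and 308 in CTL midline. Nothing in the labels gives litters, and p-values rest only on the spread between these libraries. For each gene limma also drew this spread toward that of genes of similar level, with 6.21 prior degrees of freedom beside 2 of its own. An SE from the gene's own 4 libraries would be 0.23 for Pcdh8 and 0.19 for Pcdh20, larger than the limma SEs of 0.12 and 0.11. For Pcdh1 and Pcdh9 the 2 kinds of SE were close.

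In cKO midline 4 delta protocadherins fell and 0 rose in the limma fit. Pcdh8, Pcdh9, Pcdh20 and Pcdh1 fell, while Pcdh7, Pcdh10, Pcdh17, Pcdh18 and Pcdh19 did not pass a limma adjusted p of 0.05. In the fit Pcdh8 fell by 42.3%, the largest of the 4 falls, and Pcdh1 fell by 25.2%, the smallest. Over all 14324 genes tested, 14.5% were called, 6.16% upward and 8.29% downward. All 9 members were tested, since each had a mean over the 4 libraries above the required 10 normalized counts. The median log2 change was -0.22 for the 9 members and -0.01 over all tested genes, and the median size of change without its sign was 0.25 for the members and 0.13 over all tested genes. The cKO libraries did not overlap the CTL libraries for 7 members, which is the case for 61.0% of all tested genes. The count of called members was lower without either CTL library and without cKO library 1, and higher without cKO library 2. In each of these fits the count over all tested genes moved the same way. Which members were called also depended on scaling and test: with TMM and with quantile scaling the same 4 fell and Pcdh7 rose, and with edgeR on the recovered reads Pcdh7 rose and 3 fell, without Pcdh20. In bulk tissue, fewer cells that express a gene and less RNA per cell cannot be told apart.

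**Figure D1:**
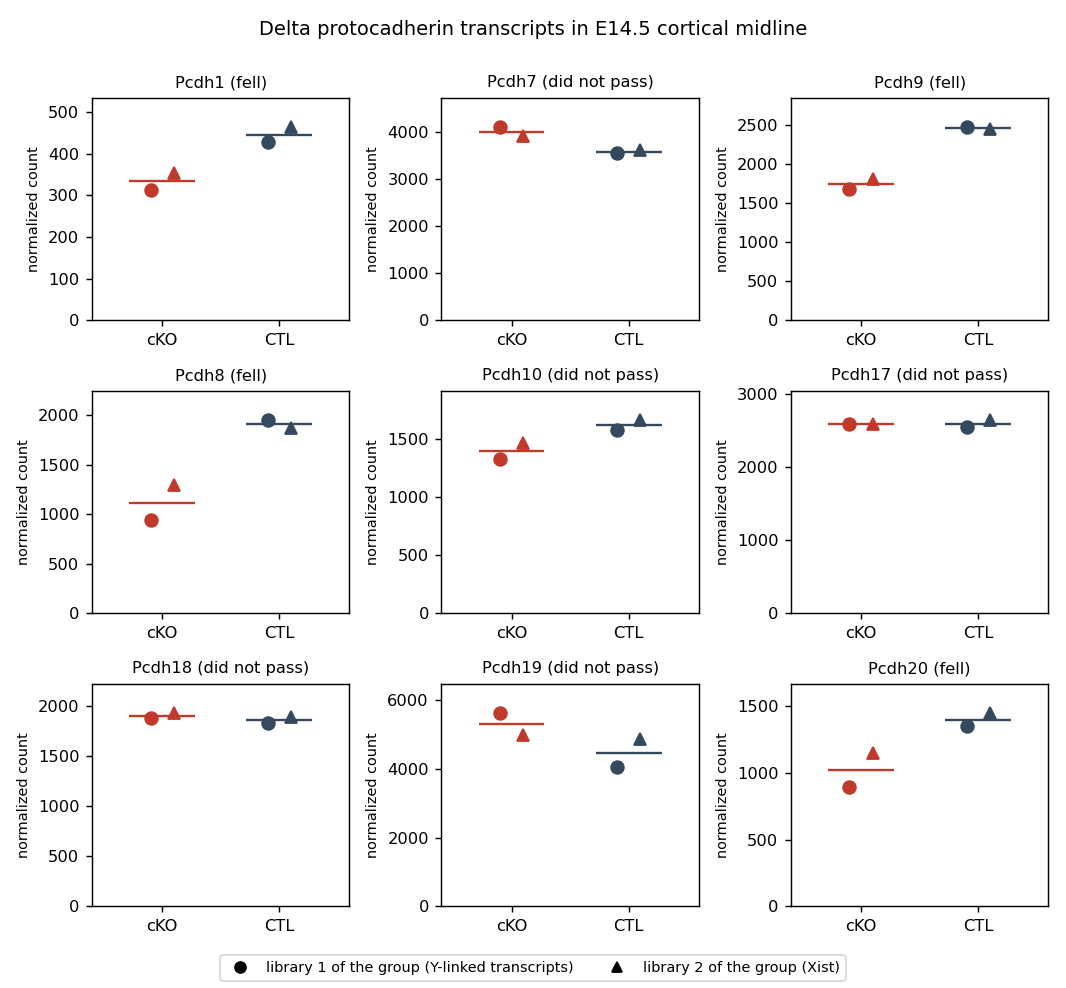
Normalized counts of the 9 delta protocadherins (vertical axes, each from 0) in cKO midline, drawn left in red, and CTL midline, drawn right in dark blue. Each point is 1 library, circles for library 1 and triangles for library 2 of a genotype, set apart sideways for reading, and lines are means of 2 libraries; in the Pcdh9 panel the cKO points lie at 1679 and 1810, both under the CTL points at 2477 and 2458.

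Among the delta-1 members, Pcdh9 showed the tightest fall. Pcdh9, whose gene spans 879 kb of mm10 chromosome 14 (93013700 to 93892834), had 1679 and 1810 normalized counts in cKO midline against 2477 and 2458 in CTL midline. Both cKO libraries were lower than both CTL libraries, and the 2 CTL libraries lay close together. The means were 1744 ± 92.2 in cKO midline and 2468 ± 13.2 in CTL midline (SD, n = 2 each), a log2 change of -0.50 (SE 0.055, limma adjusted p = 0.00429). Pcdh9 passed with each of the 4 libraries left out in turn, with an adjusted p of up to 0.0476 when CTL library 2 was left out. In the authors' deposited table its log2 change was -0.49 with an adjusted p of 3.43e-07. Pcdh9 has 2 listed RefSeq starts, and only the one at 93890679, inside its span, was used here. The promoter window of Pcdh9 (250 bases before to 50 after this start; GRCm38.p6 chr14:93890630-93890929, minus strand) is shown because Pcdh9 fell, with CCAAT, the box that binds the factor NF-Y, in capitals.
Pcdh9 promoter: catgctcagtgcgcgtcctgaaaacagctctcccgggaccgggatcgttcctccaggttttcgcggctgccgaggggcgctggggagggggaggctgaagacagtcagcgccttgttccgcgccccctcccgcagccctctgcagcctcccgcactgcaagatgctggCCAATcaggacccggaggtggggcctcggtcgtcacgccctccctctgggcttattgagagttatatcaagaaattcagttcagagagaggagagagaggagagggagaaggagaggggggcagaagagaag

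Pcdh1, an adhesion protein also known from airway epithelium, had the fewest reads behind its values, with 305 and 361 recovered reads in cKO midline and 439 and 429 in CTL midline. Its normalized counts were 314 and 353 in cKO midline against 428 and 464 in CTL midline, and the groups did not overlap. The means were 333 ± 28.1 in cKO midline and 446 ± 25.2 in CTL midline (SD, n = 2 each), a log2 change of -0.42 (SE 0.10, limma adjusted p = 0.0302). This call was the least firm of the 4. The adjusted p was 0.111 without CTL library 1, 0.200 without CTL library 2 and 0.0858 without cKO library 1. It was 0.0878 with DESeq2 on the recovered reads and 0.0854 in the authors' deposited table.

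Pcdh7, a delta-1 member that in Xenopus acts in retinal axon growth, was the only delta-1 gene with higher values in cKO midline. It had 4096 and 3899 normalized counts in cKO midline against 3541 and 3607 in CTL midline, so the groups did not overlap. The log2 change was 0.16 (SE 0.047), with a 95% interval of 0.052 to 0.27, and it did not pass (limma adjusted p = 0.0573). Pcdh7 passed after TMM scaling (adjusted p 0.0434), after quantile normalization (adjusted p 0.0408), with edgeR on the recovered reads (adjusted p 0.0267) and without cKO library 2 (limma adjusted p 0.0195).

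Among the delta-2 members, Pcdh8 had the largest change of the 9. Pcdh8, called arcadlin in rat, is induced by activity in hippocampal neurons there and brings about internalisation of N-cadherin through the kinase Taok2. It had 942 and 1291 normalized counts in cKO midline against 1948 and 1873 in CTL midline. Both cKO libraries were far under the CTL libraries, but they also differed from each other, with library 1 the lower. The means were 1116 ± 247 in cKO midline and 1911 ± 53.0 in CTL midline (SD, n = 2 each), a log2 change of -0.79 (SE 0.12, limma adjusted p = 0.00791). Among all tested genes its change was at the 97.0 percentile of size. The log2 change was -1.02 without cKO library 2 and -0.57 without cKO library 1, and the adjusted p was 0.0638 without CTL library 1 and 0.0600 without CTL library 2, where it did not pass. The Pcdh8 gene is compact (mm10 chromosome 14, 79766772 to 79771312), and its promoter window (GRCm38.p6 chr14:79771263-79771562, minus strand) is shown for the same reason as that of Pcdh9, again with CCAAT, here on the opposite strand as ATTGG, in capitals.
Pcdh8 promoter: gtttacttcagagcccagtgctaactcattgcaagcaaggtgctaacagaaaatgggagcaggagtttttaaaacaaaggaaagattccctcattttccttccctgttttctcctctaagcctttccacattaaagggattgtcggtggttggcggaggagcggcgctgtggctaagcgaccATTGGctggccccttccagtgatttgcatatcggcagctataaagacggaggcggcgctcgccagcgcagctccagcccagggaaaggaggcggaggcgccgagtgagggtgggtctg

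Pcdh10, which in mouse is needed for the outgrowth of striatal axons and recruits the WAVE subunit Nap1, had 1326 and 1465 normalized counts in cKO midline against 1576 and 1663 in CTL midline. The groups did not overlap, and the log2 change was -0.22 (SE 0.066; 95% interval -0.37 to -0.064), short of passing (limma adjusted p = 0.0655). Without cKO library 2 the log2 change was -0.29 and passed (limma adjusted p = 0.00839).

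Pcdh17 and Pcdh18 differed by little between the genotypes. Pcdh17, which in mouse gathers amygdala axons and brings the WAVE complex to their contacts, had 2585 and 2593 normalized counts in cKO midline against 2539 and 2639 in CTL midline. The cKO values lay between the CTL values, and the 95% interval of the log2 change ran from -0.11 to 0.11. Pcdh18, whose product binds the Reelin adaptor Dab1, had 1881 and 1928 normalized counts in cKO midline against 1827 and 1891 in CTL midline, with overlapping groups and a 95% interval of -0.084 to 0.15. These intervals leave out a change as large as that of Pcdh8 or Pcdh9.

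Pcdh19, the X-linked member whose human variants cause an epilepsy in heterozygous females and whose product pairs with N-cadherin, had 5628 and 4981 normalized counts in cKO midline against 4067 and 4884 in CTL midline. The groups did not overlap, but cKO library 2 was only just above CTL library 2. The log2 change was 0.25 (SE 0.089; 95% interval 0.044 to 0.45) and did not pass (limma adjusted p = 0.101). Without cKO library 2 it did (limma adjusted p = 0.0122). Between the 2 libraries with Y-linked transcripts the log2 difference, cKO minus CTL, was 0.47, and between the 2 libraries with Xist it was 0.028. With 1 library of each genotype in each sex, a difference between the sexes could not be tested.

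Pcdh20, which in mouse cortex takes part in placing layer 4 neurons, fell as well. It had 894 and 1145 normalized counts in cKO midline against 1349 and 1446 in CTL midline, with no overlap and with cKO library 1 the lowest. The means were 1019 ± 178 in cKO midline and 1398 ± 69.1 in CTL midline (SD, n = 2 each), a log2 change of -0.47 (SE 0.11, limma adjusted p = 0.0260). Without cKO library 1 the log2 change was -0.29 and still passed (limma adjusted p = 0.0255). The adjusted p was 0.0993 without CTL library 1, 0.161 without CTL library 2 and 0.0638 with edgeR on the recovered reads, where Pcdh20 did not pass, and it was 0.00383 in the authors' deposited table. Pcdh20 lies on mm10 chromosome 14 (88464743 to 88471396), as do Pcdh8, Pcdh17 and Pcdh9, and its promoter window (GRCm38.p6 chr14:88471347-88471646, minus strand; CCAAT in capitals) completes the set of falling members with an entry in the promoter table.
Pcdh20 promoter: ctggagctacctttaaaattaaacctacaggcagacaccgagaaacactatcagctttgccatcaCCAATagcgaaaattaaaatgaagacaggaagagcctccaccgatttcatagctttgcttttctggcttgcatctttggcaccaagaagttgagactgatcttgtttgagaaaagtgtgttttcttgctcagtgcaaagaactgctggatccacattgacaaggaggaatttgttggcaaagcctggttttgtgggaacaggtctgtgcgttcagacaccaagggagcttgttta

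**Figure D2:**
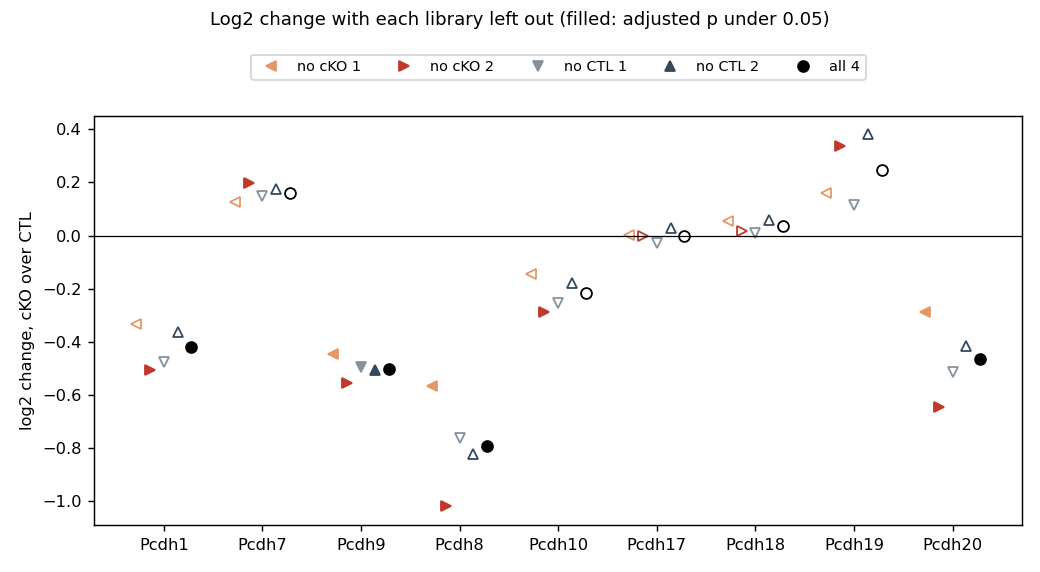
Log2 change of each member, cKO over CTL (vertical axis), with 1 of the 4 libraries left out in turn and with all 4 libraries. Filled symbols have a limma adjusted p under 0.05; Pcdh9 is filled in every setting, at -0.45 to -0.56, while Pcdh1, Pcdh8 and Pcdh20 are open when either CTL library is left out and Pcdh1 also without cKO library 1.

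The 4 falling members had the lower value in cKO midline in each sex, which was fixed once their groups did not overlap. Between the libraries with Y-linked transcripts the log2 differences, cKO minus CTL, were -1.05 for Pcdh8, -0.56 for Pcdh9, -0.59 for Pcdh20 and -0.45 for Pcdh1. Between the libraries with Xist they were -0.54 for Pcdh8, -0.44 for Pcdh9, -0.34 for Pcdh20 and -0.39 for Pcdh1. The differences were smaller in the libraries with Xist for all 4 genes, which could not be tested with 1 library of each kind. The cKO library with Y-linked transcripts is also the one that stood apart in collagens. Without it the log2 change was -0.57 for Pcdh8, -0.45 for Pcdh9, -0.29 for Pcdh20 and -0.33 for Pcdh1. With all 4 libraries it was -0.79 for Pcdh8, -0.50 for Pcdh9, -0.47 for Pcdh20 and -0.42 for Pcdh1. The part of this library in the size of the falls was not tested.

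Markers of cell types moved with the genotype beside these falls. Of 14 pan-neuronal genes 12 fell and 0 rose, and their summed level was 137421 to 149105 normalized counts in cKO midline against 190465 to 191955 in CTL midline; Mapt (tau) fell by 0.75 and Stmn2 fell by 0.62 on the log2 scale. Of 10 ventral interneuron genes 6 fell (summed level 2843 to 3203 in cKO midline, 4304 to 4797 in CTL midline), Lhx6 and Gad1 among them. Of 7 deep-layer genes 5 fell (26242 to 28111 in cKO midline, 33542 to 33592 in CTL midline) and of 8 upper-layer genes 5 fell (20810 to 21275 in cKO midline, 22930 to 23966 in CTL midline), with Rorb and Sox5 among those that fell and no rises in these 3 lists. Of 13 radial glia genes 7 rose and 1 fell (127099 to 128765 in cKO midline, 117680 to 118070 in CTL midline), with Id4 higher by 0.68 and Pdpn by 0.61 on the log2 scale. Of 10 cell cycle genes 7 rose (93608 to 100256 in cKO midline, 78022 to 83730 in CTL midline) and of 8 intermediate progenitor genes 3 rose and 1 fell. Of 12 tested hem and choroid plexus genes 4 rose, and Kcne2 was at 0 in all 4 libraries. Of 11 tested meningeal and mural genes 3 rose, and their summed level was 12798 in cKO library 1 and 6133 in cKO library 2, against 5235 to 5493 in CTL midline. Of 6 Cajal-Retzius genes 1 fell, of 3 erythroid genes 1 fell, and of 8 endothelial and 7 microglial genes 0 passed. The part of these shifts in the protocadherin values was not tested.

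The genes whose profiles over the 4 libraries lay closest to the falling members were sought among 11922 other genes averaging 50 or more normalized counts, by the root-mean-square distance between log2 values centred on each gene's mean. Closest to Pcdh9 were Abcc8 (distance 0.0098) and Sez6l2 (0.013), and closest to Pcdh8 were Fam19a2 (0.012) and Adap1 (0.035). Closest to Pcdh1 were Kctd7 (0.0075) and Nrep (0.0099), and closest to Pcdh20 were Tmem198 (0.018) and Fam84b (0.022). With 4 libraries these distances only describe the data. Among the members, Pcdh17 and Pcdh18 were most alike (0.021), followed by Pcdh1 and Pcdh9 (0.064), and Pcdh8 and Pcdh19 were least alike (0.58).

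Among 18 listed partners of protocadherins 3 fell and 15 did not pass, and none was called upward. Their median log2 change was -0.03, and 8.29% of all tested genes fell. Within the WAVE complex, Cyfip2 had 5229 and 5308 normalized counts in cKO midline against 6139 and 6238 in CTL midline (log2 change -0.23, SE 0.043, limma adjusted p = 0.0120). Abi2, another WAVE subunit, had 7230 and 7692 normalized counts in cKO midline against 8242 and 8682 in CTL midline (log2 change -0.18, SE 0.050, limma adjusted p = 0.0474). Both were lower in each cKO library than in each CTL library. The other WAVE genes Nckap1, Cyfip1, Abi1, Wasf1, Wasf2, Wasf3 and Brk1 did not pass, with log2 changes from -0.22 (Wasf1) to 0.19 (Wasf2). Dlg4, which encodes the postsynaptic scaffold PSD-95, fell (log2 change -0.32, SE 0.055, limma adjusted p = 0.00992). Cdh2, the N-cadherin gene, had 12471 and 12196 normalized counts in cKO midline against 12723 and 12964 in CTL midline (log2 change -0.06, limma adjusted p = 0.403). Dab1 was lower in both cKO libraries but did not pass (log2 change -0.17, limma adjusted p = 0.0570). Ppp1ca, Set, Taf1, Taok2, Map2k3 and Mapk14 did not pass, with log2 changes of 0.0023 (Taok2) to 0.12 (Set). Without CTL library 1 and without CTL library 2, limma called 0 partners, with 4 and 3 at an unadjusted p under 0.05, and without cKO library 2, 4 fell and 1 rose.

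The remaining non-clustered protocadherins on the list did not pass. Pcdh11x, a delta-1 gene outside the 9 members, had 513 and 427 normalized counts in cKO midline against 500 and 493 in CTL midline. Pcdh12, known from endothelium, had 245 and 270 in cKO midline against 282 and 365 in CTL midline (log2 change -0.32, limma adjusted p = 0.169). Pcdh15, known from hair cell tip links, had 728 and 553 in cKO midline against 506 and 432 in CTL midline, a log2 change of 0.44 with a limma adjusted p of 0.0668; in the authors' deposited table its adjusted p was 0.0373.

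**Figure D3:**
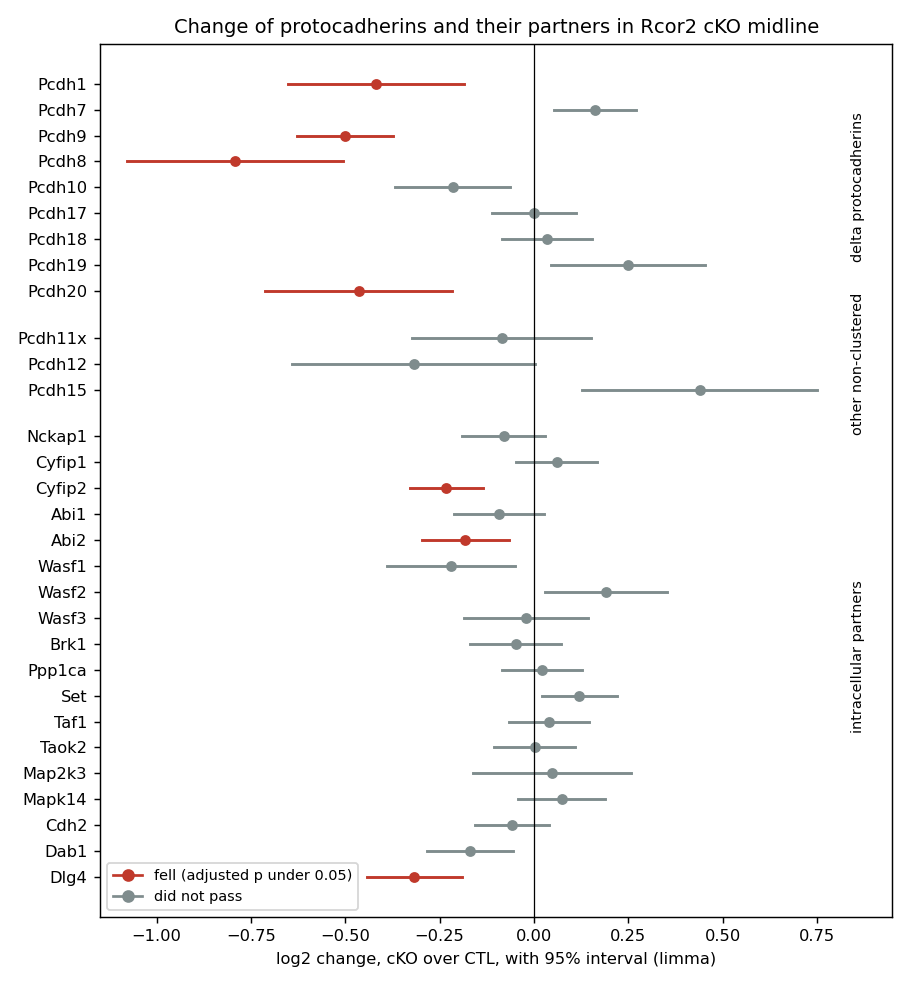
Log2 change of transcripts, cKO over CTL (horizontal axis), with 95% intervals from limma, for the 9 members, 3 other non-clustered protocadherins and 18 partners. Red marks genes that fell at an adjusted p under 0.05 and grey those that did not pass; Pcdh8 lies farthest left at -0.79, and no gene of the 3 groups passed upward.

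The ChIP-seq table was read for peaks of Rcor2 at the same genes. The authors named 3 peaks for members, 1 each for Pcdh9, Pcdh10 and Pcdh17, so 3 of 9 members had a named peak; of all RNA-tested genes 20.9% had one. Peaks were also counted by position, an alternative chosen after the data were seen. Counting summits inside the RefSeq span or within 5 kb of the RefSeq start, 9 peaks lay at 4 members: 4 at Pcdh10, 3 at Pcdh7 and 1 each at Pcdh9 and Pcdh17. The 3 peaks at Pcdh7 were named for the long non-coding RNA 4932441J04Rik, and 3 of the 4 at Pcdh10 for the long non-coding RNA 2610316D01Rik alone. Within 5 kb of a start, 3 members had a summit (Pcdh7, Pcdh10 and Pcdh17) of 8 with an entry in the promoter table, against 13.3% of RNA-tested genes. The 13.3% took whichever start of a gene lay closest to a summit, while only 1 of the 2 starts of Pcdh9 was used. Inside the span, 3 of 9 members had a summit (Pcdh7, Pcdh9 and Pcdh17), against 14.3% of RNA-tested genes. Their spans are 417, 879 and 94 kb long, and the 14.3% was not matched for length. Of the 4 genes that fell, Pcdh9 had 1 peak and Pcdh8, Pcdh20 and Pcdh1 had none by either count. The 2 genes with peaks just before the start used here, Pcdh7 and Pcdh10, did not pass in the main limma fit. In other settings Pcdh7 passed upward (TMM scaling, quantile scaling and edgeR) and Pcdh10 passed downward (the replicate block).

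At Pcdh10 the 4 summits lay at -2.29, -1.86, -0.881 and -0.33 kb from the RefSeq start on mm10 chromosome 3, where a negative distance is before the start. The nearest peak (45377987 to 45378153), the one named for Pcdh10, had heights of 15 and 12 in the Rcor2 libraries, 0 and 0 in the IgG libraries and 14 and 12 in the input libraries. So the Rcor2 heights were above IgG and level with input. The farthest peak (45376004 to 45376275) had 10 and 27 in the Rcor2 libraries, 2 and 3 in the IgG libraries and 11 and 11 in the input libraries, with Rcor2 library 2 high and library 1 under input. The nearest peak reaches 6 bases into the promoter window (GRCm38.p6 chr3:45378148-45378447, plus strand), which is shown with these bases in capitals.
Pcdh10 promoter: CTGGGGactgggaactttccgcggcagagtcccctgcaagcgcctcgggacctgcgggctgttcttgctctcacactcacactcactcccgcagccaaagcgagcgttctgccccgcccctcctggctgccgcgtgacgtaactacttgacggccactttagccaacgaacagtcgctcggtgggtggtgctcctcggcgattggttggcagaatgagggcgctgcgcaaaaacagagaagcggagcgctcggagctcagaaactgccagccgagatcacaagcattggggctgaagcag

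At Pcdh7 the 3 summits lay at -2.32, -1.41 and -0.395 kb from the start given in the promoter table, on mm10 chromosome 5. The RefSeq span of Pcdh7 begins earlier, at 57716145, so the middle and nearest summits lay inside the span and were counted both ways. The middle peak (57716590 to 57716789) had 11 and 17 in the Rcor2 libraries, 5 and 4 in the IgG libraries and 9 and 9 in the input libraries, and it was the only 1 of the 9 peaks with both Rcor2 heights above both inputs. The nearest peak (57717484 to 57717876) had 16 and 14 in the Rcor2 libraries, 1 and 3 in the IgG libraries and 15 and 12 in the input libraries. The farthest peak (57715636 to 57715843) had 10 and 21 in the Rcor2 libraries, 4 and 6 in the IgG libraries and 17 and 18 in the input libraries. So the Rcor2 libraries lay on both sides of input at the farthest peak and near it at the nearest peak. The nearest peak covers 46 bases of the promoter window (GRCm38.p6 chr5:57717831-57718130, plus strand), in capitals.
Pcdh7 promoter: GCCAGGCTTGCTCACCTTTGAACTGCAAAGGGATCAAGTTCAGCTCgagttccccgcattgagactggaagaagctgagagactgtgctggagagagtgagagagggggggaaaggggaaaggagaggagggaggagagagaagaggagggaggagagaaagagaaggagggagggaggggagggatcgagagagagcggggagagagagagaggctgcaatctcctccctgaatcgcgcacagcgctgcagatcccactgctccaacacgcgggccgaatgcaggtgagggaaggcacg

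**Figure D4:**
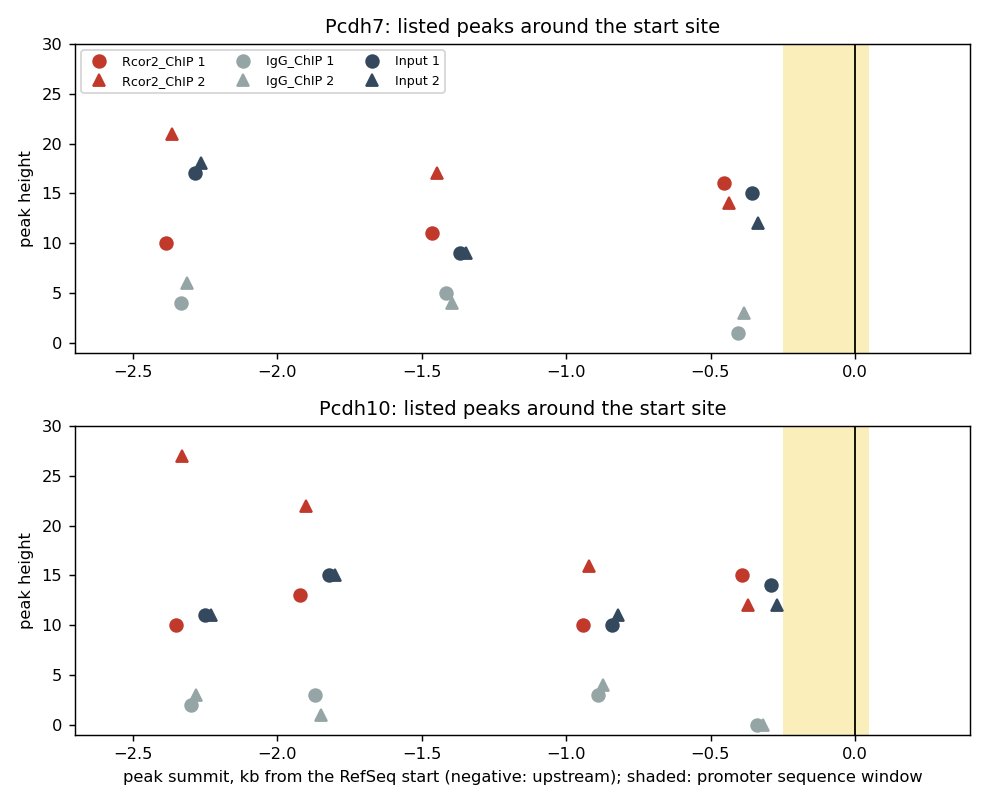
Heights of the listed peaks (vertical axis, coverage with no scaling for depth) against the distance of the summit from the RefSeq start in kb (horizontal axis) at Pcdh7 and Pcdh10, with Rcor2 libraries in red, IgG in grey and input in dark blue. Both genes have a row of peaks over IgG before the start, with input heights of 9 to 18 beside Rcor2 heights of 10 to 27; the shaded strip is the promoter window printed in the text.

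The peaks inside Pcdh17 and Pcdh9 ranked low by the authors' fold enrichment. The Pcdh17 peak (mm10 chromosome 14, 84446894 to 84447221), 3.37 kb after the start, had 13 and 17 in the Rcor2 libraries, 4 and 1 in the IgG libraries and 28 and 21 in the input libraries. Both inputs were higher than both Rcor2 heights, and the log2 ratio of the mean Rcor2 height to the mean input height, -0.69, was at the 4.55 percentile of all listed peaks, while that to IgG was at the 79.2 percentile. The Pcdh9 peak (93067786 to 93068159) lay 823 kb after the start used here. It had 12 and 20 in the Rcor2 libraries, 3 and 6 in the IgG libraries and 13 and 10 in the input libraries. Its ratio to input was at the 53.7 percentile and its ratio to IgG at the 29.8 percentile. Both peaks had the authors' fold enrichment of 3.33 over IgG, at the 14.6 percentile of the list.

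Set against IgG, all 9 peaks by position had both Rcor2 heights above both IgG heights, as did 98.9% of all listed peaks, which were called on that contrast. Set against input, 1 of the 9 had both Rcor2 heights above both inputs and 1 had both below, where 40.3% and 9.08% of all listed peaks did. After each library was scaled by its median height over all peaks, 1 of the 9 was above and 2 were below, where 29.8% and 25.1% of all peaks were. By the authors' names, 0 of the 3 member peaks had both Rcor2 heights above both inputs. The 1 of them in the promoter class, that of Pcdh10, was not above them either, where 30.4% of all promoter-class peaks were. Peaks at 1 gene share its chromatin and are not independent, and heights are not read counts, so no test was made.

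For the other members the nearest summits lay farther off, at distances that were not compared with those of all genes. The nearest summit to Pcdh8 was 109 kb from the gene, that to Pcdh19 190 kb, that to Pcdh18 257 kb and that to Pcdh20 1049 kb. The 3 nearest summits to Pcdh1 were intergenic, 11.2, 26.5 and 40.1 kb from its span on the same side. The middle one had 25 and 44 in the Rcor2 libraries, 4 and 5 in the IgG libraries and 17 and 13 in the input libraries. Its fold enrichment by the authors, 8.33, was at the 98.4 percentile of the list, and both Rcor2 heights were above both inputs. The nearest one had 19 and 19 in the Rcor2 libraries, 6 and 4 in the IgG libraries and 15 and 15 in the input libraries.

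The non-coding neighbours that carry the peak names were looked at after their peaks were seen. The span of 2610316D01Rik comes within 138 bases of the Pcdh10 start. Its strand was not looked up, so this edge may be its start or its end. 2610316D01Rik had 172 and 148 normalized counts in cKO midline against 119 and 125 in CTL midline. The log2 change of 0.38 (SE 0.15, limma adjusted p = 0.121) did not pass. Its values were higher in both cKO libraries, while those of Pcdh10 were lower. 4932441J04Rik, whose span overlaps that of Pcdh7, had 3.08 and 1.96 normalized counts in cKO midline against 1.95 and 4.32 in CTL midline and was not tested. Strand use in the counting was not given in the sources used here, and reads of overlapping genes cannot be assigned with certainty.

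Of 7 motifs searched on both strands, CCAAT was found in the most member promoters. RefSeq windows were matched for 8 members, all but Pcdh1, and 1 window was searched for each, also for Pcdh9 with its 2 starts. CCAAT on either strand was in 7 of the 8 windows (all but Pcdh7) and in 37.4% of 32851 promoter windows of the same length. In 5 of the 7 the box stood on the opposite strand as ATTGG, and the closest one before the start began 32 to 185 bases before it. The nearest box before the start is shown for these 5 genes, all of them delta-2, so that the bases around it can be compared between Pcdh8, which fell, and the others, which did not pass, with the box in capitals.
Pcdh8 box: ggctaagcgaccATTGGctggccccttcc
Pcdh10 box: tgctcctcggcgATTGGttggcagaatga
Pcdh17 box: ctccccacgccgATTGGctggcagagaat
Pcdh18 box: ggaagctcgctgATTGGctggaagcgatt
Pcdh19 box: ggctgcgcgctgATTGGctagtgcctggc

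The other motifs were found in 0 to 4 of the 8 member windows, and these counts only describe the members. GGGCGG, the GC box, was in the windows of Pcdh10, Pcdh17, Pcdh18 and Pcdh19 and in 35.7% of all windows. TATAAA was in that of Pcdh8 alone, 30 bases before the start, and in 13.6% of all windows. TGACGT, part of the cyclic AMP response element, was in that of Pcdh10 alone and in 7.51% of all windows. CAGCTG was in 0 of 8 member windows and 16.3% of all windows. The left and right parts of the element bound by Rest, TTCAGCACC and GGACAGCGC, were in 0 of 8 member windows and in 0.371% and 0.405% of all windows. GC content ran from 43.7% in Pcdh20 to 67.7% in Pcdh19, with a median of 52.7% over all windows, and Pcdh20 had 4 CpG where Pcdh17 had 26. A match describes letters in a window, not binding.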

How the data were processed

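Per the labels' protocols, RNA was prepared with the TruSeq kit from Illumina, and ChIP tissue was fixed with EGS and formaldehyde. Trim Galore, HISAT2 2.1.0 and mm10 are in the submitters' processing notes without roles; gene counter, strand and peak caller settings: not given in the sources used here. The authors deposited gene values labelled as normalized counts in the header, used here as a signal scaled by 1 size factor per library. All of them (100%) were whole multiples of 1 step within 0.001 of a read, which recovers the read counts. The same deposited table holds the authors' mean over libraries, log2 changes, a test score (log2 change over its error) and p-values. Per the file headers, the deposited peak table gives a height (coverage signal) in 6 libraries, a pileup, a fold enrichment and −log10 p and q for each peak, and peak names show calls on Rcor2 with IgG as background.

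limma-trend (limma 3.58.1, R 4.3.3), two-sided, was fitted to log2(normalized count + 1) of the 14324 genes averaging 10 or more, with Benjamini-Hochberg adjustment over all of them; this scale understates changes of low genes. An exact permutation test of 2 against 2 libraries cannot go below p = 0.333. Alternatives were TMM and quantile scaling, pseudocounts of 0.5 and 5, no filter and a mean of 50, edgeR 4.0.16 and DESeq2 1.42.0 on recovered reads, the authors' test, a replicate block and each library left out. Heights were compared by order, and ratios had 0.5 added to both sides. Levels were not compared between genes, as transcript lengths were not used here. Promoters and spans are from RefSeq (GRCm38.p6). Figures used Python 3.11.15 and matplotlib 3.10.9. Named genes were all members, Rcor2, the other non-clustered protocadherins, partners that were called with Cdh2, Nckap1 and Dab1, up to 2 markers per list by adjusted p and the 2 closest profiles per falling member; further partners, Emx1, Emx2, Ddx3y, Xist, Col3a1 and the non-coding neighbours were named after their values were seen. Members and lists were chosen with earlier results of these data known.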

Additional observations from a re-analysis of the deposited data

How the results depend on the processing

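The count of members called was 4. It stayed within 1.5 times of that under every other scaling, pseudocount, filter and test tried (3 to 5), though with TMM, quantile scaling and edgeR it included Pcdh7 upward, and was 5 with the replicate block, which here also separates the sexes; it added Pcdh10 (limma adjusted p = 0.0481) and changed no other member's call. With libraries left out it ran from 1 (without either control) to 7 (without cKO library 2); over all genes it ran from 140 to 3453 beside 2070, and for the partners from 0 to 5 beside 3. Leaving out a control leaves the 2 cKO libraries as the only source of residual spread. The log2 change of Pcdh17, 0.00016 with all libraries, was -0.0019 without cKO library 2 and ran from -0.028 without CTL library 1 to 0.028 without CTL library 2; no other member changed sign in any setting tried, and for the 7 members whose groups do not overlap leaving out a library could not do so. Of the 3 named peaks, 0 had both Rcor2 heights above both inputs, where 40.3% of all listed peaks did. With a library left out it was 0 to 1, where 41.9% to 74.7% of all listed peaks did. By position it was 1 of 9. Above IgG there were 3 of 3 named peaks, 1 of 1 in the promoter class alone and 9 of 9 by position, where 98.9% of all listed peaks were. After scaling by median height 1 of 3 named peaks was above IgG, where 14.8% of all listed peaks were. This scaling removes most of the difference that the peaks were called on. No named peak had a −log10 q of at least 10, so that alternative gave no value. Peak heights of 10 to 27 limit the precision, and no library totals were used. Same-numbered libraries were checked for pairing: their deviations from the group means correlated at 0.24 over the tested genes and at -0.04 without 5 sex-linked genes, and nothing in the labels ties the numbers, so no pairing was assumed.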
